A study of Mus musculus with 3 samples.

Results

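The comparison set 4T1 cells that had grown in contact with MSCs beside 4T1 cells that had received only medium conditioned by MSCs, to describe which surface, adhesion, receptor and signalling transcripts differed when cells were present as well as what they secrete. 4T1 is a line of mouse breast cancer cells that grows in culture, and MSC is usually read as mesenchymal stem or stromal cell. The 2 arrays of the comparison were chosen by their titles and growth conditions, out of 3 arrays in the series. The co-culture array holds RNA of 4T1 cells isolated after 1 week of contact co-culture, and the conditioned-medium array holds RNA of 4T1 cells kept for 1 week with MSC-CM. The array left over holds 4T1 cells in regular medium, with no time given, and its signal is printed as the last value for each gene. Wherever 3 signals of a gene are given, they are in the order co-culture, conditioned medium and regular medium. All 4T1 cells were grown in RPMI-1640 with FBS. The strain, source and passage of the MSCs and the method of isolation are unknown here. Only the co-culture cells grew beside MSCs and went through isolation from a mixed culture. Contact, secretion during co-culture, isolation and any MSC RNA carried along therefore cannot be told apart. There was 1 array a side, so no difference below has a replicate error or a test, and each is given by its size.

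Cells in contact exchange signals that conditioned medium carries poorly or not at all. Cadherins, integrins and immunoglobulin-like adhesion molecules hold cells to each other and to matrix, Notch and Eph receptors are activated by ligands anchored in the neighbouring membrane, and many TNF family ligands act from the cell surface. Mesenchymal stromal cells also secrete cytokines, growth factors and matrix, and the receptors for these sit on the tumour cell.

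The surface and signalling genes farthest above conditioned medium were the chemokine Cxcl11 (8.98-fold), the membrane proteins Bst2 (8.64-fold) and Ly6e (7.73-fold), the death receptor Fas (8.50-fold) and the peptide transporter Tap1 (7.33-fold). Part of this order rests on conditioned-medium signals near the floor. With the floor at the pooled 60th percentile of signal, Bst2 and Ly6e kept log2 differences of 3.11 and 2.95, while Tap1 was at 2.18, Cxcl11 at 1.66 and Fas at 1.29. With the median over a gene's probe sets Cxcl11 was at 1.62 and Tap1 at 0, and neither met the rule. Those farthest below were Rgs16 (7.07-fold), a regulator of G protein signals, the growth factor carrier Fgfbp1 (5.00-fold) and the TRAIL decoy receptor Tnfrsf23 (4.81-fold). Tnfrsf23 was near the floor in co-culture, and with the higher floor its log2 difference was -0.81, under the rule. MAS5 signals were read for 45037 probe sets per array, and 18193 genes were named, each by 1 probe set. Signals at or below 42.4, the floor, are too dim to rank. A gene is measured when its brighter signal on these 2 arrays reached 149.3, as for 9350 genes, and it is called higher or lower when the signals of a measured gene differed at least 2-fold. Of the 9350 measured genes, 545 (5.83%) were higher in co-culture and 243 (2.6%) were lower. Counts of called genes in the single lists below are to be read beside these shares. In 32 lists of surface, adhesion, receptor, ligand and signalling genes, 507 of 1351 genes on the array were measured, and of these 53 (10.5%) were higher and 16 (3.16%) were lower. Their median log2 difference was 0.29, beside 0.07 over all measured genes. In 4469 genes with at least 2 bright probe sets, the brightest pair disagreed by a median of 0.32 on the log2 scale and by 0.95 at the 90th percentile, so a difference near 1 lies close to the disagreement of probe sets within a gene.

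**Figure D1:**
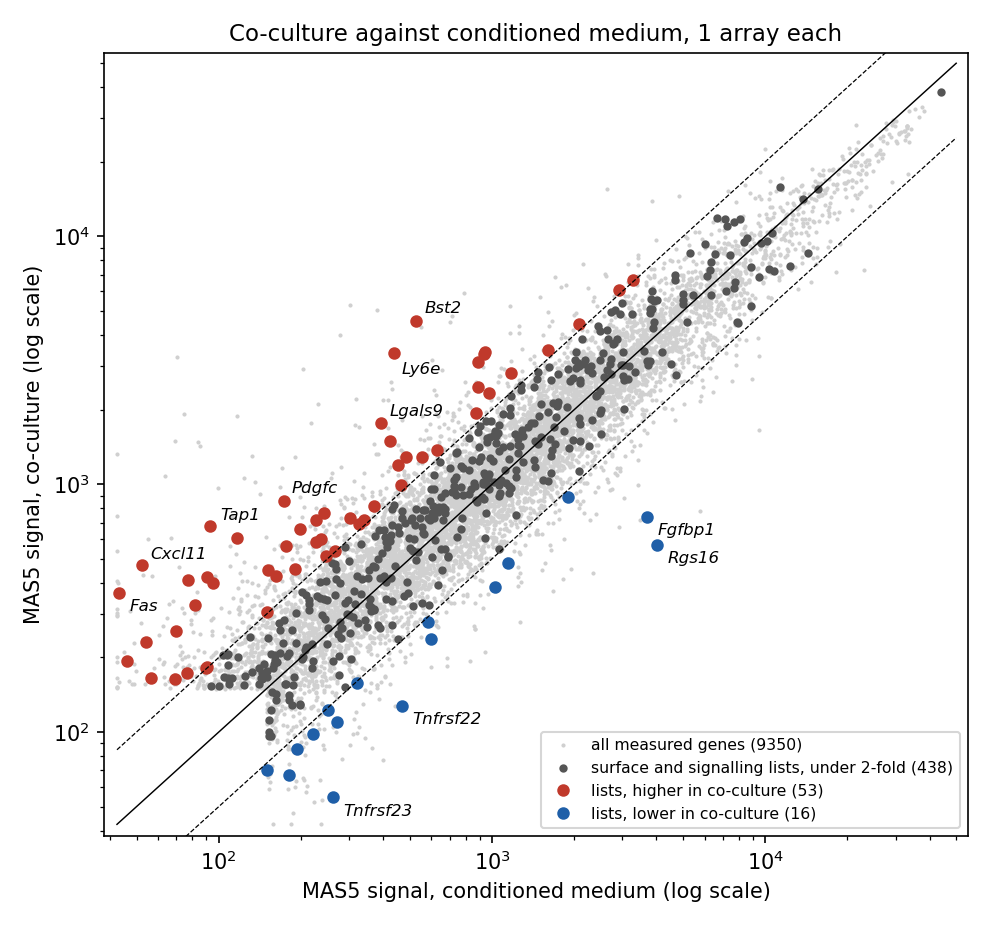
MAS5 signal in co-culture (vertical, log scale) against conditioned medium (horizontal, log scale), 1 array each, for 9350 measured genes, with signals under the floor of 42.4 drawn at it. Dark points are list genes, red those at least 2-fold higher in co-culture (53), blue those at least 2-fold lower (16), and the dashed lines mark 2-fold. Bst2, Ly6e, Fas and Cxcl11 lie farthest above the diagonal among list genes and Rgs16 farthest below.

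The identity of the cells was checked against marker lists. Of 22 epithelial markers on the array 21 were measured, and Krt18, Krt8, Krt7 and Cdh1 had co-culture signals of 21097, 16476, 17145 and 11757 against 19115, 15956, 11557 and 8100.1 in conditioned medium. Among them 1 gene was called in each direction, with St14, a surface enzyme that cleaves other membrane proteins, at 3902, 1795 and 1911 on the 3 arrays and Krt14, a keratin of basal cells, at 439, 1263 and 1218. Of 31 MSC and fibroblast markers 8 were measured, all 8 had higher signals in co-culture, and Bgn met the 2-fold rule at 182, 57.8 and 12.3 in co-culture, conditioned medium and regular medium, beside 188, 100.1 and 102 for Col1a2. Their median log2 difference was 0.60, and the summed signal of the 31 was 12345, 8088 and 8002. Vcam1, Nt5e, Postn and Eng, members of that list, had signals of 2668, 2186, 949.5 and 957 in conditioned medium without co-cultured MSCs. With no brightness filter 3 of the 31 markers of that list were at least 2-fold higher in co-culture and 0 were lower. Among its unmeasured members, the stromal transcripts Col1a1, Col3a1, Lum, Dcn, Thy1 and Pdgfrb had co-culture signals of 41.9, 45.7, 43.8, 35.2, 6.7 and 24.3. These were at or within a few units of the floor, against 4.4, 31.8, 21.8, 25.2, 10.8 and 26.8 in conditioned medium. The leukocyte markers Ptprc, Itgam, Tyrobp and Aif1 were at the floor on both arrays, and of 19 such markers 3 were measured and none was called. Of the 11 endothelial, 11 smooth muscle and pericyte, and 9 osteoblast, chondrocyte and adipocyte markers on the array, 2, 1 and 2 were measured and none was called. The sex-linked transcripts Eif2s3y, Kdm5d and Uty were at the floor on both arrays, and Xist had signals of 95.4, 34.8 and 74.1 on the 3 arrays.

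**Figure D2:**
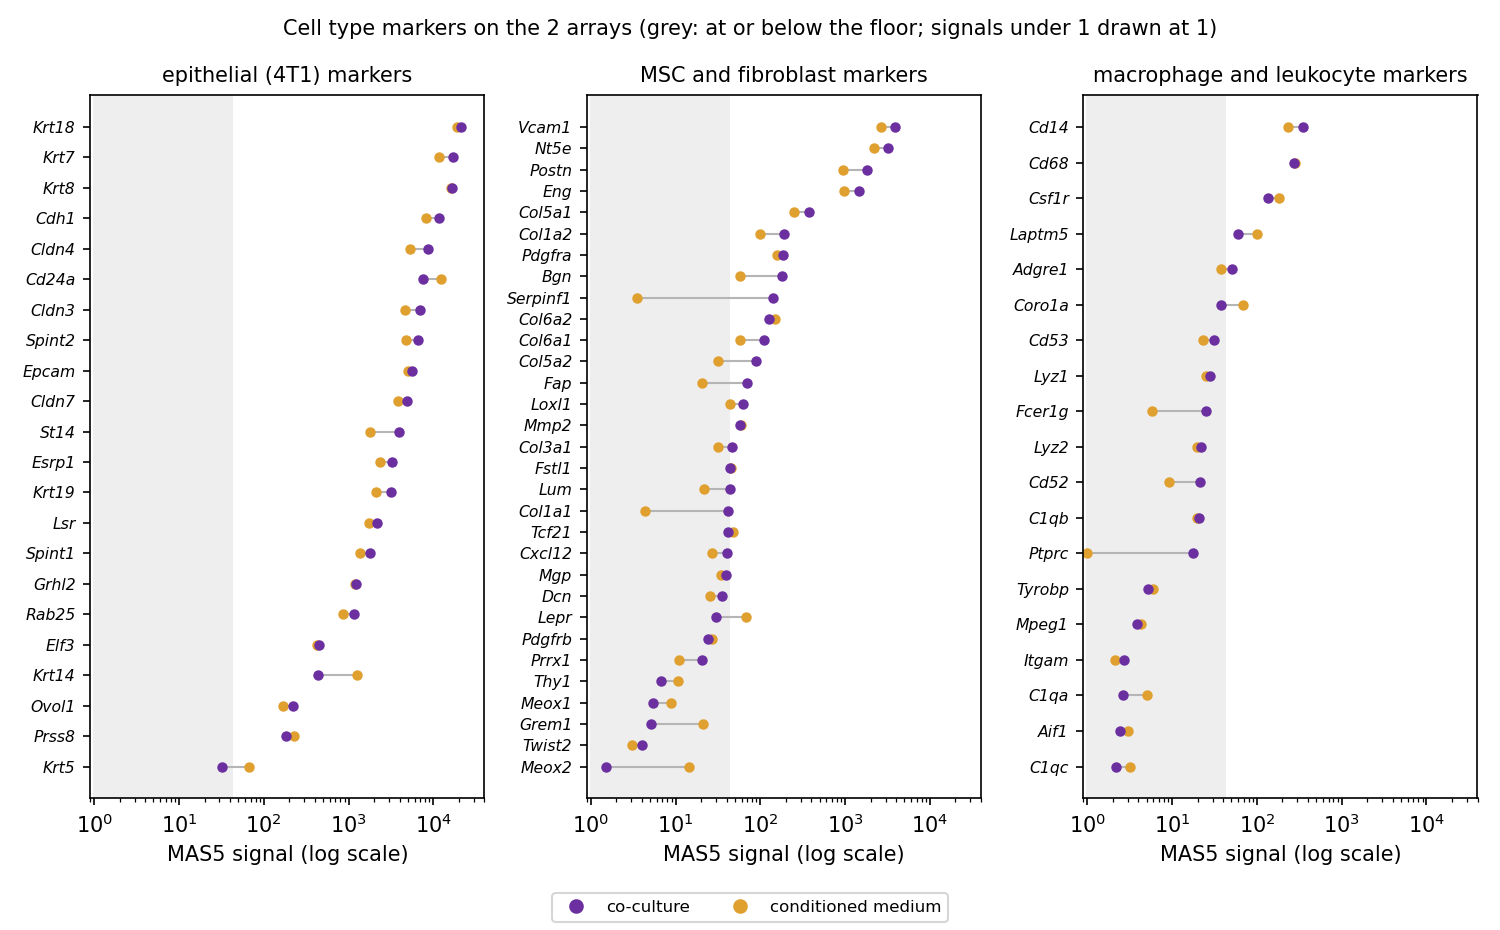
MAS5 signal (horizontal, log scale) of the epithelial, MSC and fibroblast, and macrophage and leukocyte markers in co-culture (purple) and conditioned medium (amber), 1 array each, with the grey band at or below the floor of 42.4. Epithelial markers are bright on both arrays, while Col1a1, Lum, Dcn, Thy1 and Pdgfrb lie in or at the edge of the grey band.

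Molecules that present antigen or engage immune cells had the largest share of called genes among the 6 roles into which the lists were pooled, with 11 of 25 measured genes higher in co-culture and 0 lower. MHC class I molecules display peptides that the immunoproteasome cuts and the TAP transporter carries into the endoplasmic reticulum. Of 17 measured genes of MHC and peptide presentation 8 were higher in co-culture and 0 lower, and the log2 differences had a median of 0.83. Tap1, a subunit of the transporter, had signals of 678, 92.6 and 109 in co-culture, conditioned medium and regular medium, a 7.33-fold difference that was 0 on the log2 scale with the median over its probe sets, and its partner Tap2 had 1500.0, 422 and 367, or 3.56-fold. These transporter genes were high on the co-culture array only and close together on the other arrays. The immunoproteasome subunits Psmb8 and Psmb9 were 3.58-fold and 3.14-fold higher, at 3360.5, 938 and 914 and at 715, 228 and 228.

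The loading factors and the class I activator had smaller differences. Tapbpl, a peptide editor related to tapasin, had signals of 425, 162 and 216, 2.62-fold higher in co-culture. Nlrc5, a transcriptional activator of class I genes, was 2.56-fold higher at 604, 236 and 228. Cd74, the invariant chain of class II molecules, was 2.41-fold higher at 728, 303 and 251, and Tapbp, tapasin itself, was 2.03-fold higher at 6675, 3283 and 3062, although its other bright probe set differed by 0.27 on the log2 scale. The class I heavy chains and their light chain differed less. H2-K1 had signals of 11854, 6668 and 6641, H2-D1 had 11790.0, 7152 and 7042 and the light chain B2m had 15825, 11305 and 12509.8, log2 differences of 0.83, 0.72 and 0.49, none of which met the rule.

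Ligands of inhibitory and regulatory receptors on immune cells gave 3 higher and no lower genes among 8 measured. Cd274, which encodes PD-L1, had signals of 165, 56.4 and 81.2 in co-culture, conditioned medium and regular medium, 2.92-fold higher in co-culture but with its brighter signal just above the threshold and a log2 difference of 0.14 with the higher floor. Lgals9, galectin-9, a secreted and surface-bound lectin, was 4.50-fold higher at 1771, 394 and 389. Btn1a1, a butyrophilin of milk fat globules, was 4.24-fold higher at 230.5, 54.3 and 70.9, and is better known as a mammary secretory gene than as an immune ligand. Its log2 difference was 0.63 with the higher floor and 0 with the median over probe sets, so its call was lost under both. Cd276 and Cd47, the latter an inhibitory signal to phagocytes, had log2 differences of 0.72 and 0.64, and Pvr had -0.09.

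Among Ly6 and other proteins anchored in the membrane, 2 of 7 measured genes were higher and 1 was lower. Bst2, tetherin, which holds budding virus particles at the cell surface, had signals of 4551, 527 and 578, an 8.64-fold difference. Ly6e, a GPI-anchored protein of the Ly6 family, was 7.73-fold higher at 3373, 436 and 448, and its bright probe sets gave log2 differences of 2.95 and 2.98. Both genes were at similar levels in conditioned and regular medium and far above them in co-culture. Plaur, the urokinase receptor, went the other way at 891, 1904 and 2196, 2.14-fold lower in co-culture.

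These genes stood beside a wide interferon-type difference. In a list of interferon response genes, 30 of the 32 measured were called higher and 0 lower, and the median was 2.91 on the log2 scale. Usp18, which dampens interferon receptor signalling, had signals of 3248, 70.2 and 55.1 in co-culture, conditioned medium and regular medium, and the transcription factor Irf7 had 1080.4, 63.6 and 111. The 9 interferon ligand genes on the array, among them Ifnb1 and Ifng, were all at the floor in co-culture, with Ifnb1 at 34.8 and Ifng at 7.2. Receptor subunits were measured at Ifnar1 631, 562 and 505, Ifnar2 958, 613 and 570.3, Ifngr1 733, 582 and 567 and Ifngr2 451, 657 and 617, and none met the 2-fold rule. In the JAK, STAT and SOCS list 0 of 21 measured genes was called in either direction. The list median was 0.53 on the log2 scale, beside 0.07 over all measured genes, and at 1.5-fold 10 were higher and 1 was lower. The largest differences in the list were Stat5a at 0.97, Jak2 at 0.93 and Socs2 at 0.87 on the log2 scale, and the feedback inhibitor Socs1 was at -0.67.

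Promoters of the higher surface genes were searched for the binding letters of interferon-activated factors, since several of these genes are known interferon targets. RefSeq promoter windows (GRCm38.p6, 250 bases before to 50 bases after the gene start) were matched for 36 of the 53 higher list genes and 11 of the 16 lower ones. The core of the interferon-stimulated response element, taken as GAAA, any 2 bases and GAAA again, and searched on both strands, was present in 6 of the 36 (16.7%), namely Bst2, Cxcl10, Lgals9, Sema6b, Tlr6 and Tnfrsf1b. It was present in 3.99% of 27025 genes with a window, in 3.85% of 338 measured list genes that were not called, and in 0 of the 11 lower genes. Of the 6 calls, those of Sema6b, Tlr6, Tnfrsf1b and Cxcl10 were lost under 3, 2, 2 and 1 of 9 settings of scaling, floor, filter and probe set. The gamma-activated site TTCNNNGAA, which reads the same on both strands and may overlap the first motif, was present in 6 of the 36 (Bst2, Fas, Gpr146, Psmb8, Tlr6 and Tnfrsf1b). Its share was 9.55% of all genes and 6.51% of the 338 uncalled list genes, and it was present in 0 of the 11. A match describes these letters in the reference window and says nothing of factor binding in 4T1 cells, which come from another mouse strain than the reference. The windows of the 3 higher genes of the surface, chemokine and galectin groups with the largest differences among the 6 are printed 5′ to 3′ on the gene's strand, with the response element core in capitals on whichever strand it was found. Bst2 lies at chr8:71537423-71537722, Cxcl10 at chr5:92348840-92349139 and Lgals9 at chr11:78984875-78985174, all on the minus strand.
Bst2: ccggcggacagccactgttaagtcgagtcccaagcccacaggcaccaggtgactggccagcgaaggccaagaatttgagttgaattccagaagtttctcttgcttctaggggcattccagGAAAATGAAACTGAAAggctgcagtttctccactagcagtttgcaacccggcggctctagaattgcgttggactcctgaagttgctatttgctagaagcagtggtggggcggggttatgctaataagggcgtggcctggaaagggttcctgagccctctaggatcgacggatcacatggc
Cxcl10: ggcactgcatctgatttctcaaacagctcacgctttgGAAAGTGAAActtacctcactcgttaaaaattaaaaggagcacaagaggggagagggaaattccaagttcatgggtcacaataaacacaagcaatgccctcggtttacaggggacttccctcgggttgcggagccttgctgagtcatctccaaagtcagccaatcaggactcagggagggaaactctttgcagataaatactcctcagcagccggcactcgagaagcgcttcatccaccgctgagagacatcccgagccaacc
Lgals9: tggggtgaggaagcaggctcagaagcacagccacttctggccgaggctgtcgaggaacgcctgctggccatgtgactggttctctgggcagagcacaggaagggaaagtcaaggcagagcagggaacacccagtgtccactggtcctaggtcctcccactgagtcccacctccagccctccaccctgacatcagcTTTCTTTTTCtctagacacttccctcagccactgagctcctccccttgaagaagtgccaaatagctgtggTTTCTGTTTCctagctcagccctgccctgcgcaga
Bst2 and Lgals9 each hold 2 copies, which overlap in Bst2, and Cxcl10 holds 1.

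Chemokines, secreted proteins that draw leukocytes, were split. Of 9 measured, 3 were higher and 1 was lower. Cxcl11 had signals of 471, 52.4 and 62.1 in co-culture, conditioned medium and regular medium, an 8.98-fold difference, and Cxcl10, a ligand of the same receptor CXCR3, was 3.31-fold higher at 657, 198 and 259.5. The receptor gene Cxcr3 itself stayed under the brightness threshold at 140.1, 139 and 127. Ccl20, which draws cells carrying CCR6, was 3.65-fold higher at 255, 69.9 and 21.0, and unlike the other called chemokines its regular-medium signal lay below the floor. Ccl2, a monocyte attractant, was 2.70-fold lower at 67.0, 181 and 225, and Cxcl1 and Cxcl16 had log2 differences of -0.57 and -0.15. Of 23 chemokine receptor genes Ackr3 alone was measured, at 1226, 1299 and 1227.

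**Figure D3:**
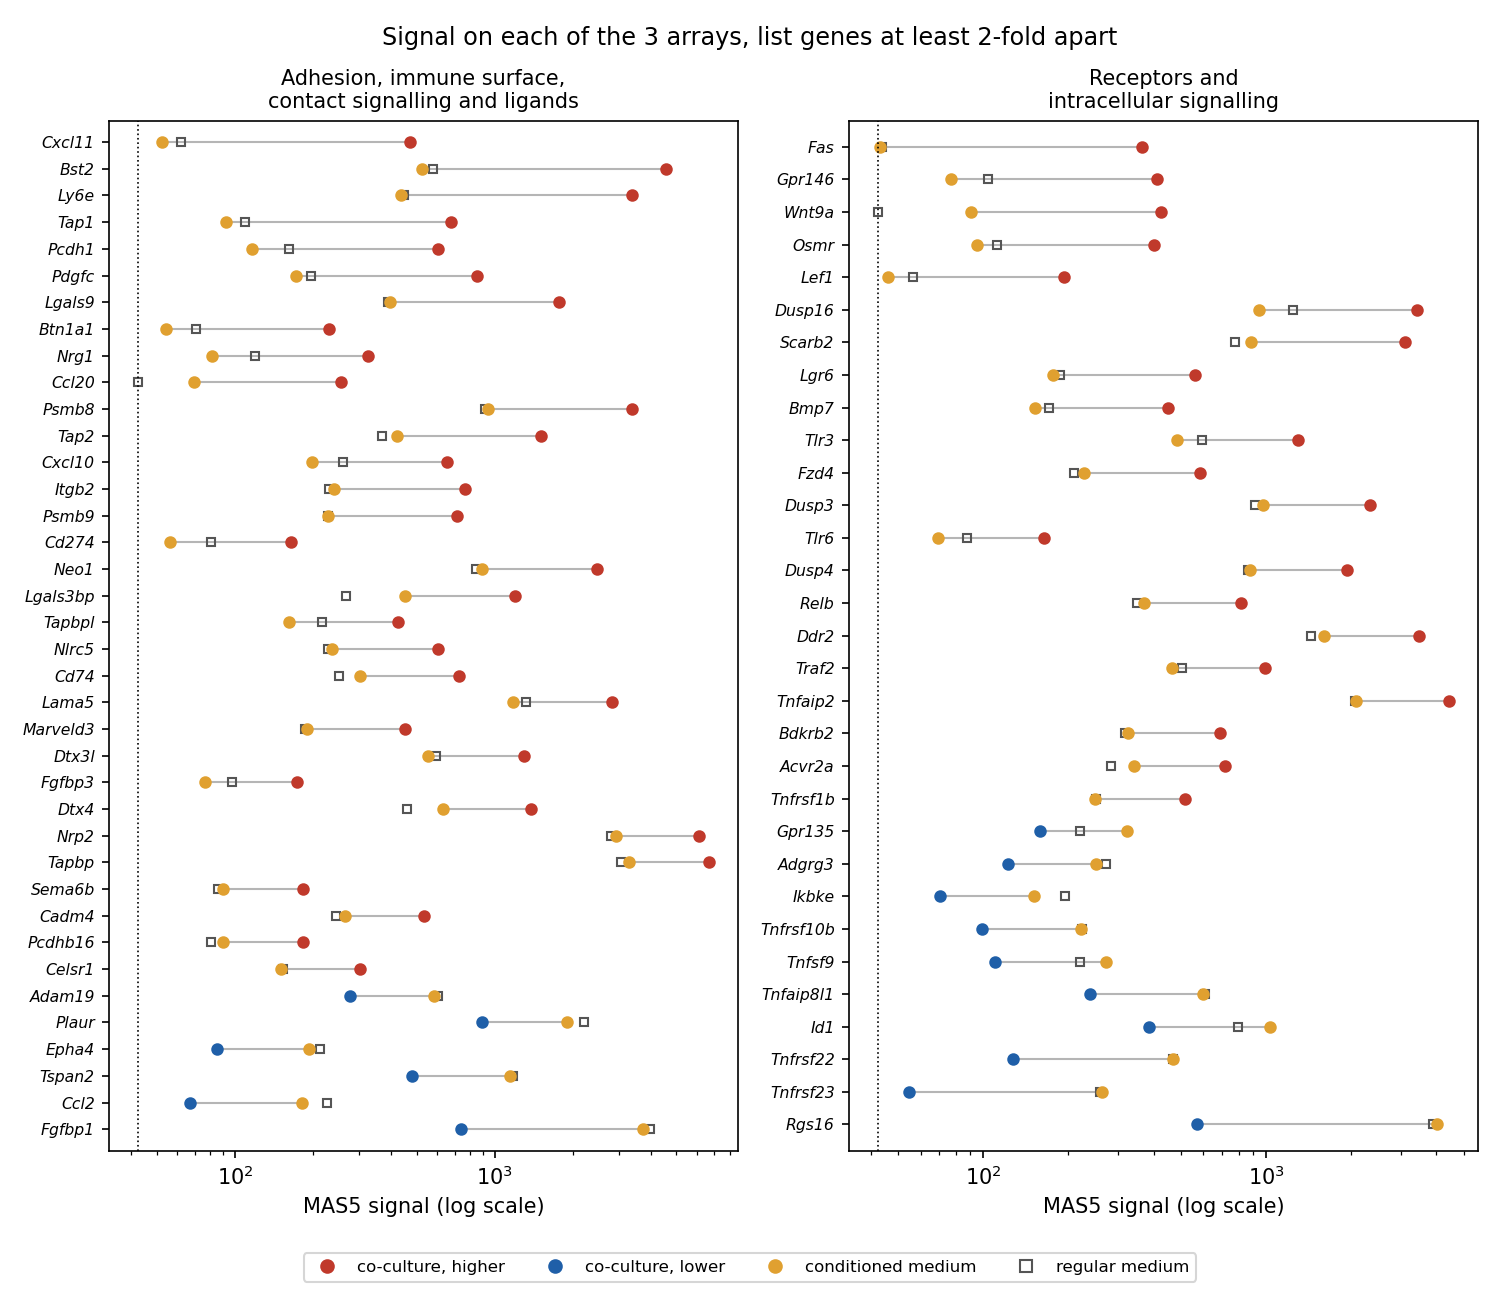
MAS5 signal (horizontal, log scale) of the 69 list genes at least 2-fold apart, with co-culture in red (higher) or blue (lower), conditioned medium in amber and regular medium as an open square, 1 array each and signals under the floor (dotted line) drawn at it. The regular-medium square lies near the amber point for most genes, and for Wnt9a and Ccl20 it lies at the floor.

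TNF superfamily genes, which carry death and survival signals between cells, differed in both directions. Of 13 measured, 2 receptors were higher and 3 receptors and 1 ligand were lower. Fas, the receptor that triggers apoptosis on binding FAS ligand, had signals of 365, 43.0 and 43.7 in co-culture, conditioned medium and regular medium, just above the floor of 42.4 on both media arrays. The difference was 8.50-fold at these signals, or 3.09 on the log2 scale, and 1.29 with the floor at the pooled 60th percentile. Its ligand gene Fasl was at the floor at 3.5 and 41.9. Tnfrsf1b, the second TNF receptor, was 2.08-fold higher at 515, 248 and 251, but its other bright probe set differed by 0.14 on the log2 scale.

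The lower members were mostly receptors of TRAIL, another death ligand of the family. Tnfrsf23 and Tnfrsf22, decoy receptors that lack a working death domain, were 4.81-fold and 3.67-fold lower, at 54.6, 262 and 258 and at 128, 469 and 469.7. The log2 difference of Tnfrsf23 was -0.81 with the higher floor, under the rule. Tnfrsf10b, the mouse TRAIL death receptor, was 2.24-fold lower at 98.6, 221 and 223, on a probe set whose name marks possible cross-hybridisation, and its log2 difference was -0.05 without such probe sets. Tnfsf9, the 4-1BB ligand, was 2.47-fold lower at 109.9, 271 and 219.9. Tnfrsf1a, the main TNF receptor, Ltbr and Tnfrsf12a had log2 differences of 0.57, 0.48 and 0.20.

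Downstream of these receptors, 3 of 28 measured NF-kB and TRAF genes (10.7%) were higher and 2 (7.14%) were lower. The shares over all measured genes were 5.83% and 2.6%. Relb, the subunit of the non-canonical pathway, had signals of 815, 371 and 350.0 (2.20-fold), Traf2, an adaptor of TNF receptors, had 991, 463 and 506 (2.14-fold) and Tnfaip2 had 4434, 2084 and 2064 (2.13-fold). Tnfaip8l1 was 2.52-fold lower at 238, 599 and 607 and the kinase gene Ikbke was 2.14-fold lower at 70.3, 151 and 195, the last just over the brightness threshold. The subunit Rela and the kinase Map3k14 had log2 differences of 0.84 and 0.70.

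Cytokine receptors gave 1 higher gene among 20 measured (5.0%), beside 5.83% of all measured genes. Osmr, the specific chain of the oncostatin M receptor, had signals of 400.3, 95.3 and 112 in co-culture, conditioned medium and regular medium, a 4.20-fold difference, but its log2 difference was 0.63 with the median over its probe sets. Its partner chain Il6st (gp130) lay just under the rule at 2518, 1274 and 1178, 1.98-fold, while another of its 4 bright probe sets differed by -1.13 on the log2 scale. The ligand gene Osm was at the floor at 40.4 and 21.7. Ghr, the growth hormone receptor, was at -0.95 and Il1rap, the IL-1 receptor accessory chain, at -0.69.

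The list of Toll-like and lectin receptors, which also holds Scarb2, gave 3 higher genes and none lower among 12 measured. Tlr3, which senses double-stranded RNA in endosomes, had signals of 1293, 485 and 595, 2.67-fold higher, with its second bright probe set at 1.22. Tlr6, a co-receptor of TLR2, was 2.37-fold higher at 164, 69.1 and 87.8. Scarb2, a lysosomal membrane protein that carries glucocerebrosidase, was 3.50-fold higher at 3108, 887 and 778. Cd14 and Tlr4 differed by 0.57 and 0.30 on the log2 scale.

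The list of growth factor ligands also held carriers of fibroblast growth factors. Of 14 genes measured in it, 3 were higher and 1 was lower, and the log2 differences had a median of 0.45. The called ligands were Pdgfc and Nrg1, both higher, and the other called genes were the carriers Fgfbp3, higher, and Fgfbp1, lower. Pdgfc, a ligand of the PDGF alpha receptor, had signals of 854, 173 and 197 in co-culture, conditioned medium and regular medium, a 4.95-fold difference that its second bright probe set gave as 2.39 on the log2 scale. The receptor genes Pdgfra and Pdgfrb, both MSC markers, had signals of 188, 159 and 101 and of 24.3, 26.8 and 11.1. Nrg1, neuregulin, which binds the ERBB3 and ERBB4 receptors, was 3.99-fold higher at 326, 81.7 and 120.0, beside 0.43 for Erbb3 and -0.10 for its partner Erbb2 on the log2 scale. On these arrays both ligand genes had larger differences than the receptor genes named here.

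Carriers of fibroblast growth factors went in opposite directions. Fgfbp1, which releases these factors from matrix, was 5.00-fold lower in co-culture, at 740.0, 3704 and 3962. The related Fgfbp3 was 2.26-fold higher at 174, 76.8 and 97.2, with 0.22 on the log2 scale at the higher floor. Kitl and Vegfa had log2 differences of 0.90 and 0.69.

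Among 19 measured receptor tyrosine kinases, Ddr2, a receptor for fibrillar collagen, was the 1 gene called (5.26%). Its signals were 3478, 1601 and 1444, 2.17-fold higher, with the other bright probe set at 1.35 on the log2 scale, and the MSC marker list beside it had a median of 0.60, whose part in this result was not tested. Fgfr3 and Egfr came nearest to the rule at -0.93 and 0.90, followed by Igf1r at 0.60.

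Wnt pathway genes gave 4 higher and no lower gene among 21 measured, with a median log2 difference of 0.47. With the median over probe sets 12 were measured, 2 were higher and 1 was lower, and the list median was 0.13. With the filter at the pooled 80th percentile 0 of 9 measured were called. Wnt ligands bind Frizzled receptors on the same or neighbouring cells and act through LEF and TCF factors. Wnt9a had signals of 424, 90.5 and 41.9 in co-culture, conditioned medium and regular medium, 4.69-fold higher than in conditioned medium, with the regular-medium signal below the floor. The receptor gene Fzd4 was 2.56-fold higher at 584, 228 and 209, and its second bright probe set gave 1.38 on the log2 scale. Lgr6, a receptor for R-spondins, was 3.19-fold higher at 561, 176 and 186, with its other bright probe set at 0.59.

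The transcription factor Lef1 was 4.20-fold higher at 193, 46.0 and 56.4, from near the floor, and its log2 difference was 0.37 with the higher floor and 0.80 with the median over probe sets, both under the rule. Axin2, a common target of the pathway, stayed below the brightness threshold at 8.2, 74.4 and 47.4. Wls, which escorts Wnt proteins to the surface, Fzd1 and Wnt7b had log2 differences of 0.87, 0.76 and 0.68, all under the rule.

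In the TGF-beta and BMP list 2 of 28 measured genes (7.14%) were higher and 1 (3.57%) was lower. The shares over all measured genes were 5.83% and 2.6%. Bmp7 had signals of 452, 152 and 171, 2.97-fold higher, though its bright probe sets ranged from 0.44 to 1.57 on the log2 scale. Acvr2a, a type II activin receptor, was 2.11-fold higher at 716, 340.0 and 282. Id1, a target of BMP signalling that restrains differentiation, was 2.66-fold lower at 386, 1029.5 and 794, and the related Id3 was at -0.88 on the log2 scale. Smad3 and Tgfb3 were at 0.95 and 0.89.

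Among regulators of G protein signalling 1 of 8 measured genes was lower and none higher. Rgs16, which speeds the shutdown of G protein signals, had signals of 570.0, 4027 and 3908 in co-culture, conditioned medium and regular medium, 7.07-fold lower in co-culture. Its 3 bright probe sets gave log2 differences from -3.74 to -2.74. The other 7 measured RGS genes were not called, and the largest of their differences were Rgs11 at -0.62 and Rgs10 at -0.57.

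Of 191 G protein-coupled receptor genes on the array 30 were measured, with 2 higher and 2 lower (6.67% each). The shares over all measured genes were 5.83% and 2.6%. Gpr146 had signals of 412, 76.9 and 104, 5.36-fold higher, with its other bright probe set at 1.72 on the log2 scale. Bdkrb2, the bradykinin B2 receptor, was 2.12-fold higher at 689.6, 326 and 318, but its log2 difference was 0.08 with the median over its probe sets. Adgrg3, an adhesion-type receptor, was 2.05-fold lower at 123, 251 and 272. Gpr135 was 2.03-fold lower at 158, 321 and 219.9, but its other bright probe set differed by 0.26, in the other direction.

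Of 112 measured adhesion genes 11 (9.82%) were higher and 2 (1.79%) lower, beside 5.83% and 2.6% of all measured genes. Their median log2 difference was 0.28. This pool also holds the Ly6 and lectin lists, and its higher genes include Bst2, Ly6e, Lgals9 and Lgals3bp. Lgals9 was counted among the higher immune surface genes as well. In the cadherin list 10 of 13 measured genes lay above 0, with a median of 0.54. In the claudin and tight junction list 11 of 13 did, with a median of 0.48. Over all measured genes 5239 of 9350 lay above 0. The cadherin median was 0.18 with the floor at the pooled 60th percentile, where the claudin median stayed at 0.48. With the median over probe sets the 2 list medians were 0.34 and 0.195. Pcdh1, a protocadherin of epithelial cells, had the largest difference among cadherins, with signals of 607, 116 and 162 in co-culture, conditioned medium and regular medium, or 5.21-fold. The planar polarity cadherin Celsr1 at 304, 150.5 and 153 and the protocadherin Pcdhb16 at 182, 90.1 and 81.1 were both 2.02-fold higher, at the edge of the rule, and with the median over its probe sets Pcdhb16 had a log2 difference of -0.55. E-cadherin, Cdh1, the cadherin of epithelial junctions, had a log2 difference of 0.54, its partner Jup of 0.84 and Ctnna1 of 0.18.

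Among immunoglobulin-like adhesion molecules 2 of 24 measured (8.33%) were higher, beside 5.83% of all measured genes. Neo1, neogenin, a receptor of netrins and repulsive guidance molecules, was 2.78-fold higher at 2472, 890.0 and 846, while its 4 bright probe sets ranged from 0.34 to 1.56 on the log2 scale. Cadm4, which links neighbouring cells, was 2.02-fold higher at 536, 265 and 245. Alcam was at -0.85 and Igsf8 at 0.86, and Vcam1, an adhesion molecule that is also an MSC marker, was at 0.54.

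Integrins gave 1 higher gene among 13 measured (7.69%), beside 5.83% of all measured genes. Itgb2, the beta subunit of leukocyte integrins, had signals of 767, 242 and 229.9, 3.17-fold higher. Its alpha partners Itgal, Itgam and Itgax were at the floor on both arrays, at co-culture signals of 20.2, 2.7 and 12.3, as was the leukocyte gene Ptprc at 17.6. None of the other measured subunits was called, with Itgb1 at -0.31, Itgav at 0.31, Itga3 at 0.60 and the hemidesmosome subunit Itgb4 at 0.69 on the log2 scale. The collagen receptor subunit Itga2 was at -0.74.

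Among the matrix molecules that integrins bind, Lama5, the alpha 5 chain of basement membrane laminins, was the 1 gene called of 23 measured (4.35%). Its signals were 2821, 1175 and 1319.6, 2.40-fold higher, and its other bright probe set was at 1.06. Sparc at 0.94, Postn at 0.92 and Col4a5 at 0.91 came close to the rule, and the first 2 are usual products of stromal cells. Postn is in the MSC marker list, whose median was 0.60, and the part of MSC RNA in these differences was not tested. Ccn1 and Ccn2, matricellular targets of the YAP factor, were at -0.82 and -0.77, and none of 28 measured Hippo pathway genes was called.

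Among junction genes 1 was called. Marveld3, a tight junction membrane protein, was 2.38-fold higher at 453, 190.1 and 186. It was the 1 called gene (7.69%) among 13 measured of the claudin and tight junction list, beside 5.83% of all measured genes. Cgn, cingulin, was at 0.92, Cldn4 at 0.70 and Cldn3 at 0.57. None of 8 measured desmosome genes was called, and Dsg2 was at 0.89. Of the connexins and pannexins, through which touching cells can exchange small molecules, 3 were measured and none was called, with the connexin Gja1 at -0.03 from signals of 10373, 10561 and 10187.

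Tetraspanins, which cluster integrins in the membrane, had a median log2 difference of 0.04 over 16 measured genes. Tspan2 was 2.37-fold lower at 482, 1144 and 1171, and its 3 bright probe sets lay between -1.25 and -1.21 on the log2 scale. Cd9 was at -0.81. In the lectin, mucin and proteoglycan list Lgals3bp, a secreted glycoprotein that binds galectin-3, was 2.66-fold higher at 1198, 451 and 269, and the heparan sulphate proteoglycan Gpc1 was at 0.92. Cd44, the hyaluronan receptor, was at -0.46 with signals of 6879.9, 9493 and 8716, while Has2, a hyaluronan synthase among the 15 genes farthest below conditioned medium, was 4.55-fold lower at 277, 1261 and 1299.

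**Figure D4:**
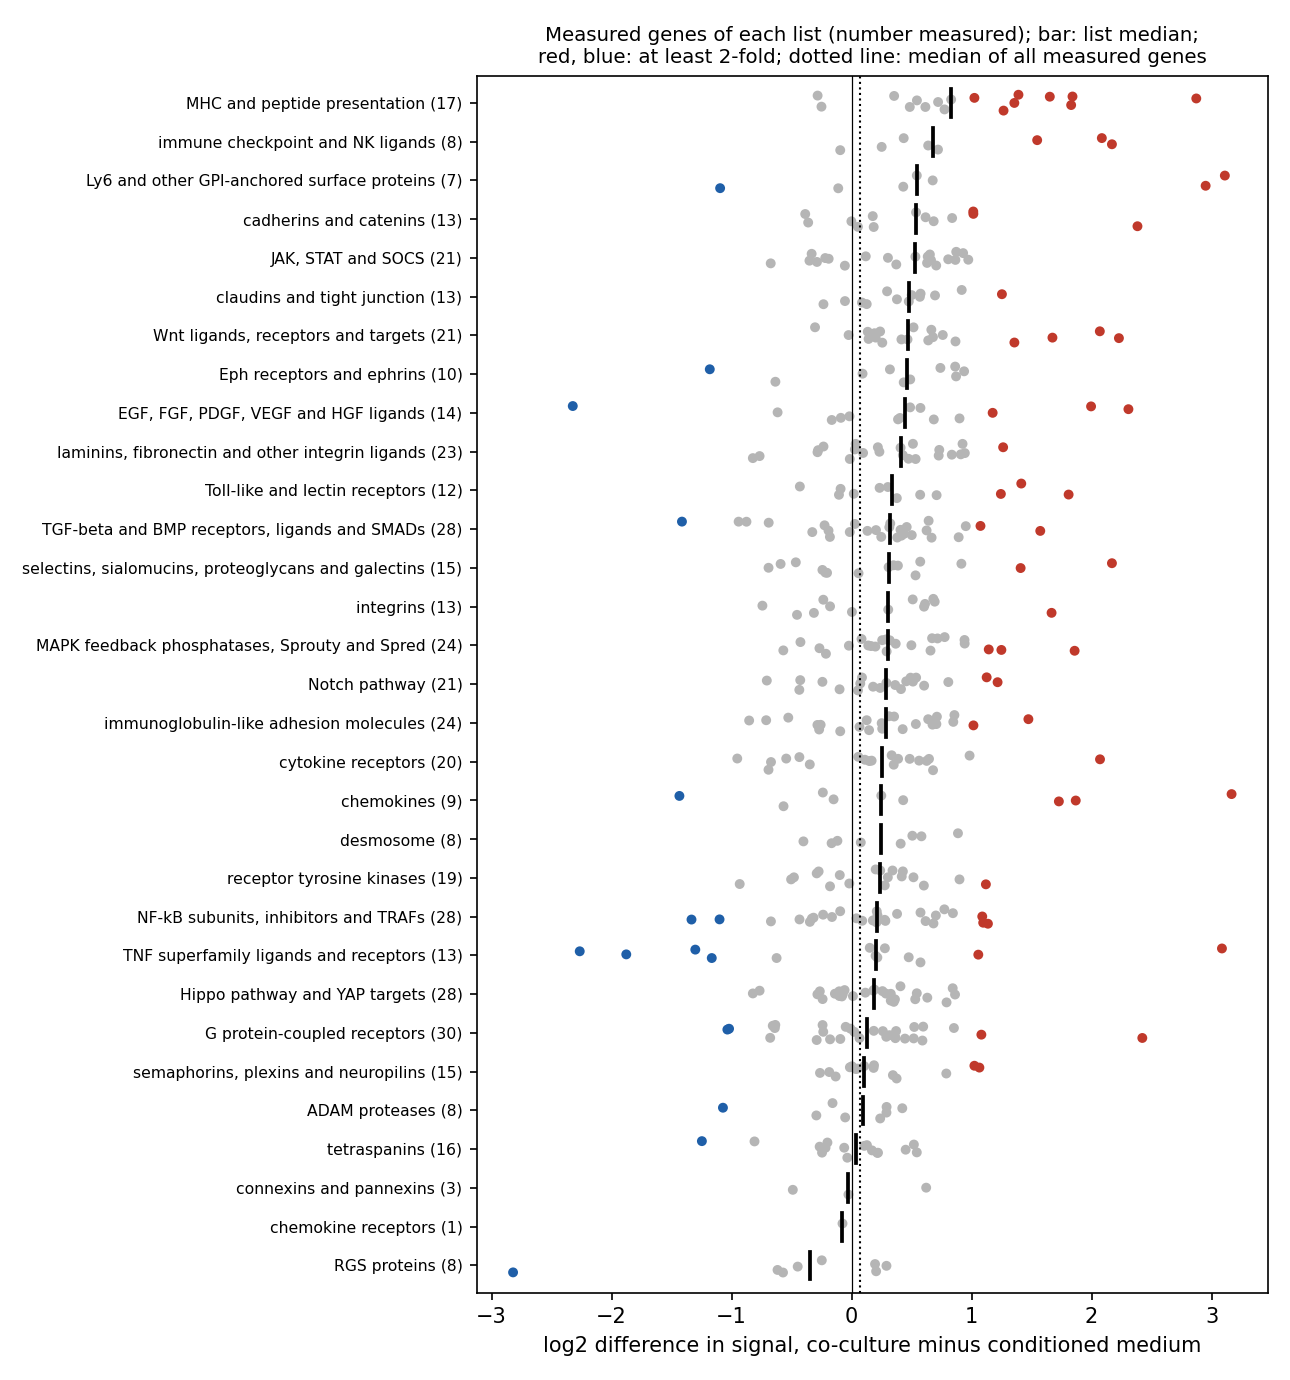
Log2 difference in signal, co-culture minus conditioned medium (horizontal), for each measured gene of 31 of the 32 lists (vertical, number measured in brackets, sorted by median), 1 array each. Bars mark list medians, the dotted line the median of all measured genes at 0.07, red and blue points genes at least 2-fold higher or lower. The MHC list has the highest median at 0.83 and the RGS list the lowest at -0.35.

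In the pooled Notch, Eph, semaphorin and ADAM protease lists 4 of 53 measured genes (7.55%) were higher and 2 (3.77%) lower. The shares over all measured genes were 5.83% and 2.6%. The lower genes were the receptor Epha4 and the protease Adam19. Of 21 measured Notch pathway genes 2 were higher, and both are ubiquitin ligases of the Deltex family. Dtx3l, which works with PARP9 in DNA repair and interferon responses, had signals of 1290.5, 555 and 596 in co-culture, conditioned medium and regular medium, or 2.32-fold, and Dtx4 had 1377, 631 and 461, or 2.18-fold. The ligand Jag1 was at 0.81, the receptors Notch1 and Notch2 at -0.43 and 0.36, and the targets Hes1 and Nrarp at 0.49 and -0.24 on the log2 scale. Hey1 was at the floor on both arrays.

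Of 10 measured Eph receptors and ephrins Epha4 was the 1 gene called. It was 2.27-fold lower at 85.4, 194 and 213, and its 3 bright probe sets ranged from -1.18 to -0.36 on the log2 scale. Ephb3, the ephrins Efnb2 and Efna5, and Epha2 had positive differences of 0.94, 0.87, 0.86 and 0.74. Among 15 measured semaphorins, plexins and neuropilins, Nrp2, a co-receptor of semaphorins and VEGF-C, was 2.09-fold higher at 6102, 2916 and 2789.7, with bright probe sets from 0.23 to 1.07. Sema6b was 2.03-fold higher at the dim signals of 183, 90.2 and 85.8. Adam19, a membrane protease that sheds neuregulins, was 2.10-fold lower at 277, 583 and 607, and the sheddases Adam10 and Adam17 were at 0.24 and -0.05.

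Feedback phosphatases of the MAP kinases gave 3 higher and no lower gene among 24 measured. Dusp16, which acts on JNK and p38, had signals of 3411, 940.4 and 1245, or 3.63-fold, and Dusp4, a nuclear phosphatase of ERK, had 1938, 877 and 864, or 2.21-fold. Dusp3 had 2326, 979 and 916, or 2.38-fold, but its 3 bright probe sets ranged from -0.55 to 1.25 on the log2 scale, so its direction depends on the probe set. Dusp6 and Spry2, usual readouts of ERK activity, were at 0.37 and 0.14.

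Immediate early genes, which handling of cells is known to induce, were read beside the signalling lists, since only the co-culture cells were isolated. Of 20 measured genes of a dissociation and immediate early list 4 were higher and 1 was lower, and the median was 0.27 on the log2 scale. Atf3 was 4.39-fold and Fos 3.67-fold higher, at 2888, 658 and 686 and at 440.2, 120.0 and 104 on the 3 arrays, Klf4 was 2.75-fold and Klf6 2.17-fold higher, and the heat shock gene Dnajb1 was 2.50-fold lower. Jun, Egr1, Ier2 and Dusp1 had differences of 0.37, 0.36, 0.36 and -0.43 on the log2 scale. The part of isolation in the differences of the signalling genes was not tested.

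Some called genes outside the lists also act at the membrane or in signalling, and the following were chosen after their values were seen. Cdsn, corneodesmosin, an adhesion protein of keratinised epithelia, had signals of 742, 112 and 113 in co-culture, conditioned medium and regular medium, a 6.63-fold difference. Antxr1, a receptor that binds collagen, was 5.01-fold higher at 328, 65.5 and 84.5, and Ptpru, a receptor-type tyrosine phosphatase, was 4.94-fold higher at 337, 68.2 and 88.7. Gpnmb, a membrane glycoprotein of lysosomes and the cell surface, was 4.10-fold higher at 738, 180.0 and 212. Crb3, an apical polarity protein, was 3.68-fold higher at 741, 201 and 147.

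The non-receptor kinases Fyn and Src, which act downstream of integrins and receptor kinases, were 2.94-fold and 2.53-fold higher. Fyn had signals of 1372, 466 and 406 and Src of 1163, 459 and 480.1, and the bright probe sets of Src gave 1.34 and 1.36 on the log2 scale. Gab1, a docking protein of growth factor receptors, was 2.59-fold higher at 395, 152 and 192. Tgm2, transglutaminase 2, which cross-links matrix and binds integrins, was 6.94-fold higher at 2206, 318 and 244, with 5 bright probe sets between 1.70 and 3.05. Inpp4b, a phosphatase of inositol lipids, was 4.23-fold lower at 85.8, 363 and 275, and Grk5, a kinase that desensitises G protein-coupled receptors, was 2.31-fold lower at 90.7, 209 and 266.

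Calls of the following list genes, some of them given with this limit above, also depended on the floor or on the probe set. With the floor at the pooled 60th percentile the log2 differences of Ccl20 (0.77), Tlr6 (0.13), Sema6b (0.30), Tnfrsf23 (-0.81), Tnfsf9 (-0.86), Adgrg3 (-0.75), Tnfrsf10b (-0.57), Epha4 (-0.38), Ccl2 (-0.28) and Ikbke (-0.01) no longer met the 2-fold rule. With the median over a gene's probe sets Wnt9a (1.14), Gpr146 (1.31) and Tapbpl (1.19) kept a 2-fold difference but no longer reached the brightness threshold. In that setting Acvr2a (0.73), Bmp7 (0.86), Dtx4 (0.95), Marveld3 (0.22), Neo1 (0.34), Nrp2 (0.65), Tapbp (0.65), Tnfaip2 (0.80), Tnfrsf1b (0.60) and Tnfrsf10b (-0.61) were under 2-fold. Cadm4, Celsr1 and Pcdhb16 each had a log2 difference of 1.00 with the arrays scaled to the same median, just under the rule.

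Over all genes, the largest differences in the higher direction lay outside the surface lists. Above the floor on both arrays they were, in order, Usp18 (46.3-fold), Irgm2, Igtp, Arrdc4, Txnip (17.5-fold), Irf7, Ifit1, Oasl2, Oas1a, Xaf1, Rtp4, Ifit3, Gbp7, Ddx60 and Slc24a3, most of them interferon-inducible genes. Csn3, a milk casein, had signals of 1319, 17.2 and 87.1 and was at least 31.1-fold higher, from the floor in conditioned medium. Slc24a3, a sodium, potassium and calcium exchanger of the plasma membrane, was 9.36-fold higher at 399, 42.6 and 106. Its conditioned-medium signal lay just above the floor of 42.4, and its call was lost with the filter at the pooled 80th percentile. Gbp7, an interferon-inducible GTPase, was 9.83-fold higher at 1304, 133 and 104. Slc18a2, a vesicular monoamine transporter, was 4.50-fold lower at 53.1, 239 and 227. The call of Slc18a2 was lost with the floor at the pooled 60th percentile and with the filter at the pooled 80th. The 18 measured genes of cholesterol synthesis had a median of -1.57 and the 26 measured genes of mitosis a median of -1.01, all of them below 0, beside which the surface and signalling lists lay at 0.29.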

How the data were processed

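RNA of 4T1 cells was measured on 3 mouse expression arrays, 1 per culture condition. The authors deposited MAS5 signals, which are linear intensities per probe set, per the submitters' processing notes that name no version. The target of the array scaling is not given in the sources used. The 2%-trimmed mean intensity of each deposited array lay between 497.7 and 498.0 and the medians between 71.6 and 79.8, and the signals were used with no further scaling. Probe sets were named through the platform table, with symbols updated through gene identifiers for 34741 of the 34945 probe sets with 1 symbol. Of the rest, 932 named several genes and 9160 named none, and neither kind was used. The probe set with the highest mean over the 3 arrays stood for a gene. The floor was the pooled 40th percentile of signal (42.4) and the brightness threshold the pooled 60th percentile (149.3). Log2 differences were taken after raising signals to the floor, and a gene whose dimmer signal lay at the floor is given as at least that fold. With 1 array per condition no test was run. Calls were a description of size, at least 2-fold in a measured gene. Precision is limited by the number of arrays. Calling was tested on simulated data with differences planted in bright genes only, so recovery of dim genes was not covered. Signals of different probe sets are not on a common scale, and a marker list's summed signal is a description only.

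The comparison, its members and the gene lists were chosen with earlier results of these data known, and the pattern of the list of interferon ligands was corrected after the data were read. Genes eligible to be named were the called members of the 32 lists, up to 3 uncalled measured members per list with the largest difference, pairing ligands, receptors and subunits, the 15 largest differences in each direction and 5 at the floor, and up to 4 genes per context or marker list with defining markers. A further rule on gene descriptions could not be applied, since the gene table used here gives none. Other genes and markers named in the text were chosen after their values were seen. Promoter windows came from RefSeq. Of the 32 lists 1 is not reported here on its own. Alternatives changed the scaling, floor, filter, probe set and size rule. Python 3.11.15, NumPy 2.4.6, pandas 2.3.3, SciPy 1.17.1 and matplotlib 3.10.9 were used.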

Additional observations from a re-analysis of the deposited data

How the results depend on the processing

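Against 545 genes higher in co-culture, 282 were called with the brightness filter at the pooled 80th percentile, which tests fewer genes, 177 at 3-fold and 1579 at 1.5-fold. Against 243 lower genes the same settings gave 141, 56 and 930. The median over a gene's probe sets gave 401 lower genes, of which 173 were among the 243. Against 53 higher list genes they gave 26 at the 80th percentile, 23 at 3-fold and 143 at 1.5-fold. Against 16 lower list genes they gave 5, 4 and 44, the floor at the pooled 60th percentile gave 9, and no filter or the median over probe sets gave 25 each. The share of calls that were higher was 69.2%, and 52.7% with the median over probe sets, the cause of which was not tested. Dusp3 (-0.13), Gpr135 (0.26) and Pcdhb16 (-0.55) reversed on the log2 scale with the median over probe sets, and Gpr135 (0.26) also without probe sets marked for cross-hybridisation. Of the 69 called list genes 24 met the rule under each of 9 settings of scaling, floor, filter and probe set, and 38 lost it with the 80th percentile filter, 19 besides the 3 reversed with the median over probe sets and 15 with the floor at the 60th percentile. No paired analysis was possible because each condition has 1 array. With 1 array a side, the spread between cultures is unknown.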
